A study of Rattus norvegicus with 13 samples.

Results

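Of 2618741 autosomal windows of 1000 bp in the rat genome, 26444 (1.01%) gave little methylated DNA signal in both sperm and morulae although reads did reach them. Signal is given as CPM, the count of a window per 1000000 counts of its library. The windows were selected on these same values: a mean of at most 0.05 CPM over the 7 sperm libraries, a mean of at most 0.1 CPM over the 6 morula libraries, and a total of at least 13 counts over all 13 libraries, on chromosomes 1 to 20. They are called low windows here and cover 26.44 Mb in all. The series as a whole holds 2782040 windows on 23 chromosomes. Since the signal chose the low windows, their low level is a description and is not tested.

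In methylated DNA immunoprecipitation (MeDIP) an antibody that binds 5-methylcytosine pulls down DNA fragments, and a window is read more often the more methylated CpG sites it holds. A window can thus be low because its CpG sites are unmethylated, as at many CpG-rich promoters, because it holds few CpG sites, or because its sequence cannot be placed uniquely in the assembly. Mammalian sperm DNA is densely methylated outside such promoters. After fertilisation most of that methylation is removed on both parental genomes, and it is laid down again after the blastocyst has formed. The morula lies in the middle of this erasure. No genome sequence or annotation of the build used by the files was at hand, so the 3 kinds of low window cannot be told apart below, and windows are named by their position in Rnor_6.0.

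Gestating Hsd:Sprague Dawley females, an outbred rat strain, received DDT, an insecticide, or the vehicle dimethyl sulfoxide on embryonic days 8 to 14, and they alone were treated. Sperm was taken from the cauda epididymis of males of the F3 generation of either lineage, and morulae were made by injecting single sperm heads of these lineages into oocytes of superovulated SD females 6 to 12 weeks old (ICSI). There are 4 DDT sperm libraries and 3 each of control sperm, DDT morula and control morula. Morulae were cultured in vitro and pooled, and no label ties a library to 1 animal, so p-values measure the spread between these libraries only. A morula library differs from a sperm library in more than methylation: it holds the maternal genome as well.

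Library totals ran from 30386626 to 193750804 counts, and 1 count was worth between 0.00516 CPM (control sperm replicate 2, the deepest) and 0.0329 CPM (control sperm replicate 3). The latter, with 30386626 counts, and DDT sperm replicate 4, with 33684143, were the shallowest and stood apart from the other 5 sperm libraries. Their deviations from their group means correlated across windows at r = 0.479 with each other and at -0.205 to -0.433 with those of sperm libraries of the opposite lineage. Results that rest on sperm are therefore also given without this pair; where the pair is left out of the rule, the minimum total is still taken over all 13 libraries. Among the morulae, the control libraries (48923904 to 65864303 counts) were all deeper than the DDT libraries (37842198 to 40787673).

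The low windows held 867700 counts in all. Their mean level was 0.0529, 0.0504 and 0.0514 CPM per window in control morula replicates 1 to 3 and 0.0493, 0.0499 and 0.0499 CPM in DDT morula replicates 1 to 3. In sperm it was 0.0232, 0.0243 and 0.0253 CPM in control replicates 1 to 3 and 0.0245, 0.0229, 0.0239 and 0.0269 CPM in DDT replicates 1 to 4. All autosomal windows with at least 13 counts averaged 0.383 to 0.385 CPM in morulae and 0.386 to 0.39 CPM in sperm. The low windows took 0.13% to 0.14% of the counts of a morula library and 0.0607% to 0.0711% of those of a sperm library. Without the shallow pair the sperm libraries ran from 0.0229 to 0.0245 CPM, and the rule applied without that pair gave 27978 windows, 95.4% of the low windows among them. The thresholds allow more signal in morulae than in sperm, so the higher level in morulae follows in part from the selection.

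**Figure D1:**
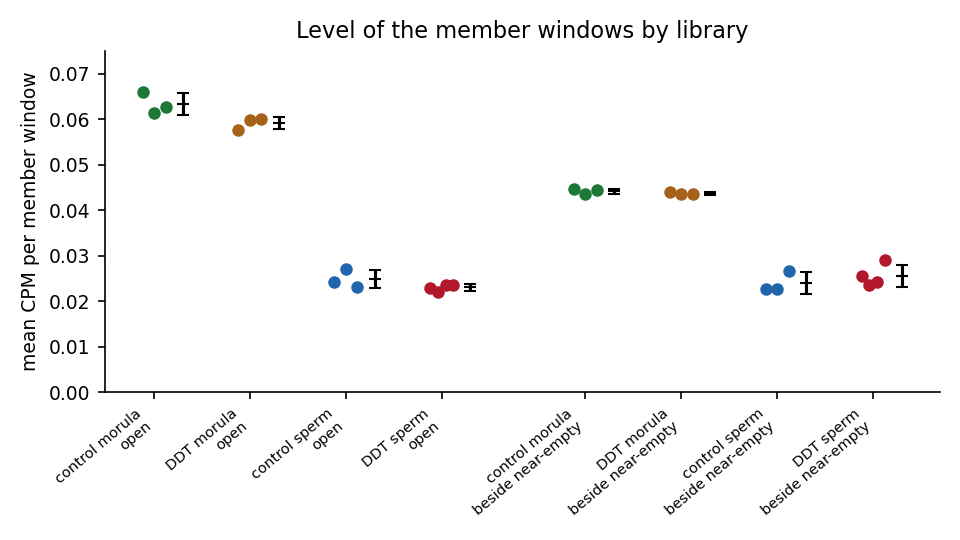
Mean CPM per low window (vertical axis) in each of the 13 libraries (points), by group, with the group mean and SD beside them. Open windows, at left, have no near-empty window within 5 windows on either side; windows beside near-empty sequence are at right. Open windows ran from 0.0576 to 0.0659 CPM in morulae and from 0.0221 to 0.027 CPM in sperm.

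At this depth a low window is read by a handful of fragments per library. The median count of a low window was 1 to 3 in a morula library and 0 to 4 in a sperm library. No count was found in 13.2% to 20.2% of the low windows in the control morula libraries and in 26.1% to 27.3% in the DDT morula libraries. In sperm this share was 7.98% in control replicate 2, the deepest library, and 51.6% in control replicate 3. The upper limit that a count of 0 allows, taken at 3 counts, is 0.0155 CPM in control sperm replicate 2 and 0.0987 CPM in control sperm replicate 3, so in the latter a count of 0 does not place a window under the sperm threshold. Of the low windows, 1754 (6.63%) had a count in all 13 libraries. Between replicates of a group, the variance of the counts was on average 1.34 to 1.51 times that of counting error alone.

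Within the set, the mean over sperm libraries had a median of 0.0234 CPM and the mean over morula libraries a median of 0.0477 CPM. The morula mean was above the sperm mean in 20046 low windows (75.8%). No sperm count at all was found in 84 of them and no morula count in 105. The window chr2:158738001-158739000 is the one of the first kind with the most counts: it had 9, 5 and 7 counts in the control morulae, 2, 6 and 1 in the DDT morulae, and 0 in all 7 sperm libraries. Its counterpart is chr13:100773001-100774000, with 0 in all 6 morula libraries, 5, 10 and 0 counts in control sperm and 9, 2, 3 and 0 in DDT sperm. At this depth a count of 0 gives an upper limit only.

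The thresholds cut through continuous distributions. A window just inside the sperm threshold, chr2:170063001-170064000, had 0.04999 CPM in sperm and 0.06785 CPM in morulae, and one just outside it, chr17:75334001-75335000, had 0.05001 and 0.09258 CPM. At the morula threshold, chr11:23217001-23218000 lay just inside with 0.09999 CPM in morulae and 0.03635 CPM in sperm, and chr2:15281001-15282000 just outside with 0.10001 and 0.03265 CPM. The last step of 0.005 CPM under the sperm threshold held 1941 low windows and the next step above it 1744. The last step of 0.01 CPM under the morula threshold held 3086 and the next step above it 3873. At the minimum total, 817 low windows had exactly 13 counts, and 829 windows under both thresholds had 12.

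At these thresholds, low signal in morulae was rarer than low signal in sperm. Among windows with at least 13 counts, 190257 met the sperm threshold, and 13.9% of these are low windows. The morula threshold was met by 45311, and 58.4% of these are low windows. Without the shallow pair the shares were 15.7% and 61.7%. The remaining 163813 windows that were low in sperm alone had a median of 0.0328 CPM in sperm and 0.198 CPM in morulae, against 0.298 CPM in morulae over all windows. The 18867 windows low in morulae alone had a median of 0.0889 CPM in sperm, against 0.277 CPM over all windows.

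Most low windows lay close to sequence that was hardly read at all. A window is called near-empty here when it has under 13 counts over the 13 libraries, as have 124919 autosomal windows, 105448 of them with no count in any library. Of the low windows, 16157 (61.1%) had a near-empty window among the 5 on either side, and 12069 (45.6%) directly adjoined one. Over all windows with at least 13 counts these shares were 9.66% and 2.32%. They were 11% and 2.31% in windows low in sperm alone, close to the genome, and 57.9% and 42% in windows low in morulae alone, close to the low windows. A near-empty window is one that fails the minimum of the selection, so low windows and near-empty windows are neighbours on the scale of counts as well as on the chromosome. Unread sequence, assembly gaps and sequence without methylation cannot be told apart in these counts.

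**Figure D2:**
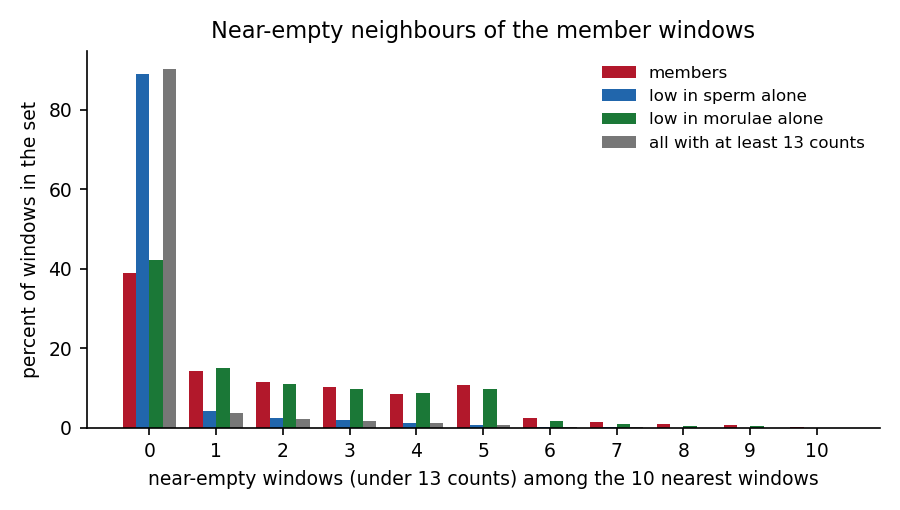
Percent of windows (vertical axis) by the number of near-empty windows among the 10 nearest, 5 on each side (horizontal axis), for the low windows (labelled members), windows low in 1 tissue alone and all windows with at least 13 counts. No near-empty neighbour was found for 38.9% of the low windows, 89% of those low in sperm alone, 42.1% of those low in morulae alone and 90.3% of all windows.

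In 12364 of the 16157 (76.5%) the near-empty windows were on 1 side only. This includes 3792 with a single near-empty neighbour, for which no other case is possible. In 2276 (14.1%) all 5 windows on 1 side were near-empty and none on the other, and 3793 had near-empty windows on both sides. The other 10287 low windows (38.9%) had none within 5 windows on either side and are called open. Open windows had a higher morula signal than those beside near-empty sequence, with medians of 0.0665 and 0.0392 CPM, while their sperm signal was alike, with medians of 0.0225 and 0.0238 CPM. The same order held in each of the 6 morula libraries, at 0.0576 to 0.0659 CPM in open windows and 0.0434 to 0.0446 CPM beside near-empty sequence. In sperm the libraries overlapped, at 0.0221 to 0.027 and 0.0225 to 0.029 CPM. With the rule applied without the shallow pair, 38.2% of the windows were open, and the sperm libraries ran from 0.022 to 0.0265 CPM in open windows and from 0.0224 to 0.0268 CPM beside near-empty sequence.

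Around open windows the signal rose steeply. At 0, 1, 2 and 5 kb from them the median over windows was 0.0225, 0.104, 0.167 and 0.191 CPM in sperm and 0.0665, 0.197, 0.254 and 0.269 CPM in morulae. Out to 5 kb no near-empty window can occur here, by definition. Beyond that the level hardly moved. At 50 kb the medians were 0.192 and 0.271 CPM, and at 500 kb 0.22 and 0.285 CPM. The medians of all windows with at least 13 counts were 0.277 and 0.298 CPM. Those leave out near-empty windows, which made up 6.86% and 5.97% of the flanks at 50 and 500 kb. Flanks at 500 kb with at least 13 counts that are not low windows were also set against the mean of all windows with at least 13 counts. They reached 0.924 to 0.978 of that mean in sperm and 1.03 to 1.05 in morulae. Around the windows beside near-empty sequence the medians were 0.104 and 0.208 CPM at 5 kb, but these count the near-empty neighbours by which that set is defined. Over flanks at 1 kb with at least 13 counts that are not low windows, the mean was not lower beside near-empty sequence than around open windows: the medians over libraries were 0.2345 and 0.2108 CPM in sperm and 0.2831 and 0.2506 CPM in morulae. Without the shallow pair the sperm medians around open windows were 0.106, 0.17 and 0.194 CPM at 1, 2 and 5 kb. Most of the rise around an open window thus lay within 2 kb. The window at 0 kb was chosen for low signal and its neighbours were not, so some rise follows from the selection. The rise was not particular to open windows in either tissue. Around windows low in sperm alone the sperm medians were 0.0328, 0.106, 0.169 and 0.188 CPM at 0, 1, 2 and 5 kb. The morula medians of that set rose less, from 0.198 CPM at 0 kb to 0.277 CPM at 5 kb. Around windows low in morulae alone the morula medians were 0.0709, 0.185, 0.228 and 0.259 CPM at 0, 1, 2 and 5 kb. The flanks of both these sets include near-empty windows. The antibody pulls down fragments that can reach into the next window, and fragment length was not used here.

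**Figure D3:**
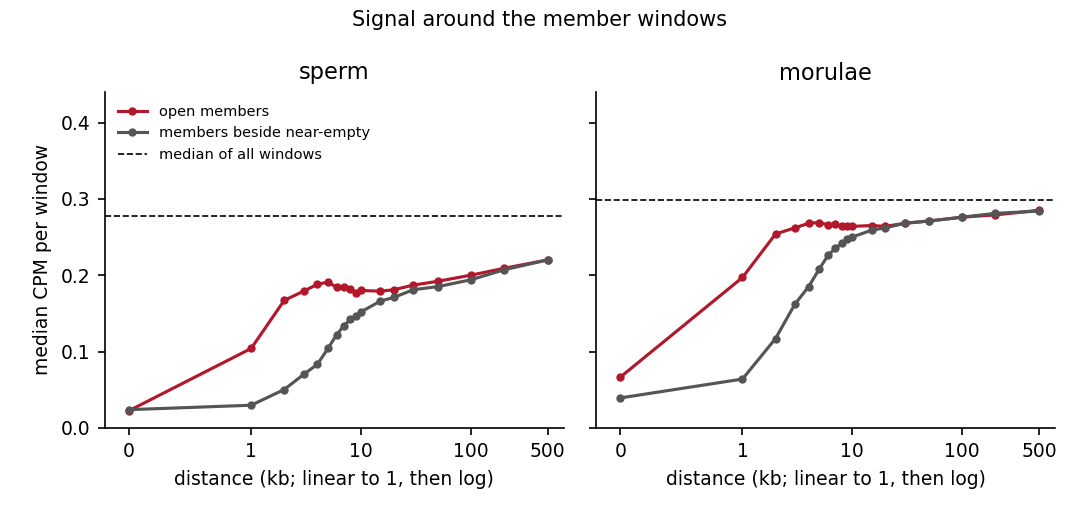
Median CPM per window (vertical axis) against the distance from a low window in kb (horizontal axis, linear to 1 kb and logarithmic beyond), in sperm at left and in morulae at right; members are the low windows. The dashed line is the median of all windows with at least 13 counts, 0.277 CPM in sperm and 0.298 CPM in morulae. It leaves out near-empty windows, which the plotted flanks can include. The line of open windows reaches 0.167 CPM in sperm and 0.254 CPM in morulae at 2 kb.

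The surroundings of the low windows differed between the tissues. For this, flanking windows with at least 13 counts that are not low windows themselves were set against the mean of all such windows of the same library. At 5 to 10 kb they reached 0.828 to 0.897 of that mean in the 7 sperm libraries (median 0.847) and 0.96 to 0.983 in the 6 morula libraries (median 0.968), and the tissues did not overlap. At 500 kb the values were 0.928 to 0.982 in sperm and 1.03 to 1.05 in morulae. Control sperm replicate 3 and DDT sperm replicate 4 were the highest of the sperm libraries at 5 to 10 kb, at 0.897 and 0.892, and without them the range was 0.828 to 0.852. Around open windows alone the values at 5 to 10 kb were 0.827 to 0.896 in sperm and 0.951 to 0.979 in morulae. Relative to the rest of their library, the flanks were lower in each of the 7 sperm libraries than in any of the 6 morula libraries. These libraries chose the windows, with a stricter threshold in sperm, so the difference can follow in part from the selection. How large that part is was not tested. This ratio was not computed around windows low in 1 tissue alone. Medians over all flanks at 5 kb, near-empty ones included, are a different measure. They were 0.191 CPM in sperm and 0.269 CPM in morulae for open windows, 0.188 and 0.277 CPM for windows low in sperm alone. For windows low in morulae alone they were 0.196 and 0.259 CPM. Near-empty windows made up 0% (by definition), 3.82% and 13.1% of these flanks, so the medians are not over like sets.

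Low windows were mostly single. They formed 23351 runs of adjoining windows, of which 20942 were 1 window long. Thus 79.2% of the low windows had no low window beside them. Even so, low windows adjoined one another far more often than their share of the genome. Of the windows 1 kb from a low window, 11.7% were low windows, against 1.01% of all autosomal windows. Runs of at least 5 windows numbered 46 and held 261 low windows, and they were 64 when the rule was applied without the pair of shallow sperm libraries. The 10 longest were taken by rule, with ties broken by the lower mean signal.

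The longest run, chr7:4993001-5004000, covered 11 windows. It had 29, 19 and 23 counts in the control morulae and 23, 19 and 24 in the DDT morulae. In sperm it had 28, 56 and 5 counts in the control libraries and 27, 15, 19 and 2 in the DDT libraries. Per window this is 0.0161 CPM in sperm and 0.044 CPM in morulae, and none of the 20 windows around it was near-empty. Those flanks averaged 0.291 CPM in sperm and 0.393 CPM in morulae, and 7 of the 20 were low windows themselves. The 1 Mb bin in which the run starts, 4 to 5 Mb of chromosome 7, has 517 near-empty windows of 1000 and a median of 0.0743 CPM in sperm.

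Next came chr1:223380001-223389000 with 9 windows, at 0.0165 CPM in sperm and 0.0497 CPM in morulae against flanks of 0.37 and 0.491 CPM. The run chr14:2268001-2275000, of 7 windows, had 0.0127 CPM in sperm and 0.0786 CPM in morulae. It had 0 near-empty windows among its 20 flanks, as had chr16:70176001-70182000, of 6 windows, with 0.0154 and 0.0616 CPM. The flanks of the latter averaged 0.57 CPM in sperm and 0.884 CPM in morulae and were the highest of the 10 runs.

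Around 5 of the 10 runs the 20 flanking windows were poorly read on average. Near-empty windows made up 10 of the 20 flanks of chr1:121659001-121665000 and of chr7:4309001-4315000, 9 of those of chr3:143708001-143714000, and 8 of those of chr2:77294001-77300000 and of chr4:101779001-101785000. Flank means of these 5 runs were 0.0171 to 0.0665 CPM in sperm and 0.0246 to 0.0991 CPM in morulae. These flanks are themselves close to or under the thresholds.

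In 2 of the 10 runs a single library carried most of the sperm counts. The run chr13:33974001-33982000, of 8 windows, had 58 counts in DDT sperm replicate 1. It had 3, 4 and 11 in control sperm and 7, 3 and 5 in the other DDT sperm libraries. With depth taken into account, no single library held most of its sperm signal. Its summed CPM was 0.518 in DDT sperm replicate 1, 0.362 in control sperm replicate 3 and 0.148 in DDT sperm replicate 4. The run chr3:143708001-143714000 had 49 counts in DDT sperm replicate 1, against 4, 3 and 4 in control sperm and 4, 7 and 2 in the other DDT sperm libraries. Its summed CPM was 0.438 in DDT sperm replicate 1 and at most 0.132 in any other sperm library. In morulae the same runs had 26, 41 and 30 counts (control) with 23, 13 and 9 (DDT), and 15, 17 and 11 with 7, 7 and 9.

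The low windows were spread over all 20 autosomes and concentrated in a few places. In bins of 1 Mb, the median was 8 low windows, and 56 of 2629 bins held none. The fullest 26 bins (the top 1%) held 2447 low windows, 9.25% of all. Chromosome 7 gave 6 of these bins between 3 and 9 Mb: 74 low windows at 3 to 4 Mb, 153 at 4 to 5 Mb, 118 at 5 to 6 Mb, 149 at 6 to 7 Mb, 65 at 7 to 8 Mb and 63 at 8 to 9 Mb. The single fullest bin was 223 to 224 Mb of chromosome 1 with 161, and 42 to 43 Mb of chromosome 8 held 127, 20 to 21 Mb of chromosome 12 held 126 and 35 to 36 Mb of chromosome 2 held 110.

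The fullest bins were read less than others, which follows in part from ranking them by their number of low windows. They had a median of 160 near-empty windows, against 33 in the other bins, and the median of their window medians was 0.124 CPM in sperm and 0.251 CPM in morulae, against 0.277 and 0.296 CPM. Applied without the shallow pair, the rule gave 9.31% of its windows in the top 1% of bins, and 25 of the 26 bins were the same. The share of open windows among their low windows was 36.5%, close to the 39.1% elsewhere. Single bins departed from this: the bin 35 to 36 Mb of chromosome 2 had 55 near-empty windows and 86 open windows among its 110, and 70 to 71 Mb of chromosome 16 had 39 near-empty windows and 71 open windows among its 76, while at 4 to 5 Mb of chromosome 7 near-empty windows numbered 517 and 33 of 153 were open.

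By chromosome, low windows made up between 0.686% of the windows with at least 13 counts (chromosome 10) and 1.37% (chromosome 12), with 1.36% on chromosome 7, 1.23% on chromosomes 2 and 13 and 0.803% on chromosome 19. Across the 20 chromosomes this share went with the share of near-empty windows (Pearson's r = 0.822, Spearman's rho = 0.745, n = 20). Without the shallow pair the shares ran from 0.711% (chromosome 10) to 1.44% (chromosome 7), with r = 0.834 and rho = 0.753. For open windows alone the correlation was r = 0.705 and rho = 0.6. The points share the same 13 libraries and the assembly, so these are descriptions. With the chromosome's median signal over all windows, the share of open windows correlated at r = -0.155 in sperm and -0.13 in morulae.

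**Figure D4:**
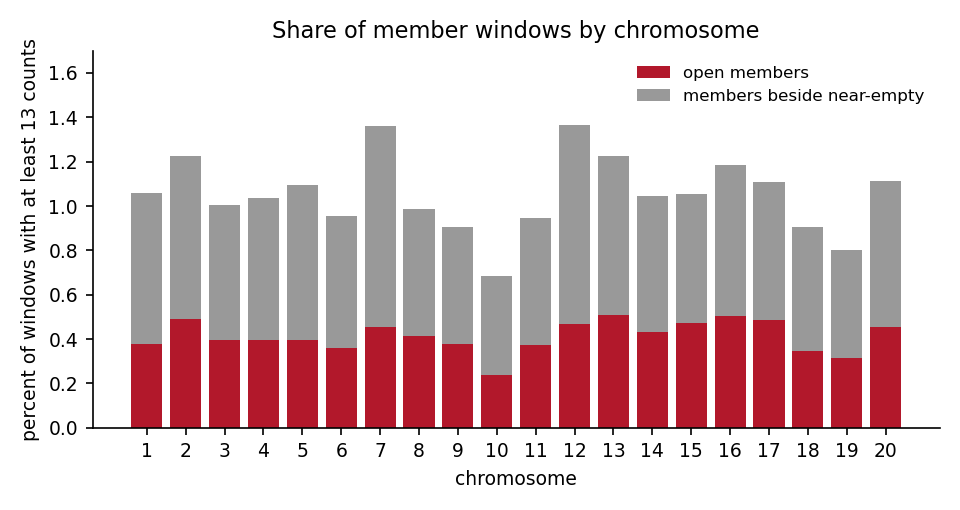
Low windows as a percent of the windows with at least 13 counts (vertical axis) on each autosome (horizontal axis), split into open windows and those beside near-empty sequence. Chromosome 10 is lowest at 0.686% and chromosome 12 highest at 1.37%.

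The sex chromosomes are outside the rule. The same thresholds were met by 18460 of the 145453 X windows with at least 13 counts (12.7%) and by 370 of 3190 Y windows (11.6%), against 1.06% on the autosomes. Without the shallow pair the shares were 12.8% and 11.8%. Median signal over all windows was lower there too, at 0.102 CPM in sperm and 0.153 CPM in morulae on X. Each sperm carries every autosome but either X or Y, so a threshold in CPM does not mean the same per copy on these chromosomes.

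As a description, the thresholds were also applied within 1 lineage, and the windows so chosen were read in the other lineage. The minimum total was still taken over all 13 libraries, so the other lineage had a part in the choice. Of the windows chosen in control 74.8% are low windows, and of those chosen in DDT 72.7%. In the control lineage 29718 windows met the thresholds. Of these, 18728 (63%) also met both thresholds in the DDT lineage, against 1.25% of all windows with at least 13 counts. The sperm threshold was met by 85.2% of them and the morula threshold by 74.3%, against 8.97% and 2.42% of all windows. Their median in the DDT lineage was 0.0236 CPM in sperm and 0.0517 CPM in morulae, while all windows had 0.273 and 0.295 CPM. In the other direction, 31055 windows were chosen in the DDT lineage and 60.3% met both thresholds in the control lineage, against 1.19% of all windows, with medians of 0.0247 CPM in sperm and 0.061 CPM in morulae. The lineages share no library, though their reads share the assembly and its unread sequence. Most of the chosen windows thus met both thresholds in the other lineage as well. Over all windows chosen in control, the 95th percentile in the DDT lineage was 0.0704 CPM in sperm and 0.183 CPM in morulae, and over all chosen in DDT it was 0.0703 and 0.2 CPM in the control lineage, so part of them lay well above the morula threshold. Without the shallow pair 63.7% of 31938 and 62.9% of 32341 chosen windows met both thresholds in the other lineage, against 1.3% and 1.28% of all windows.

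**Figure D5:**
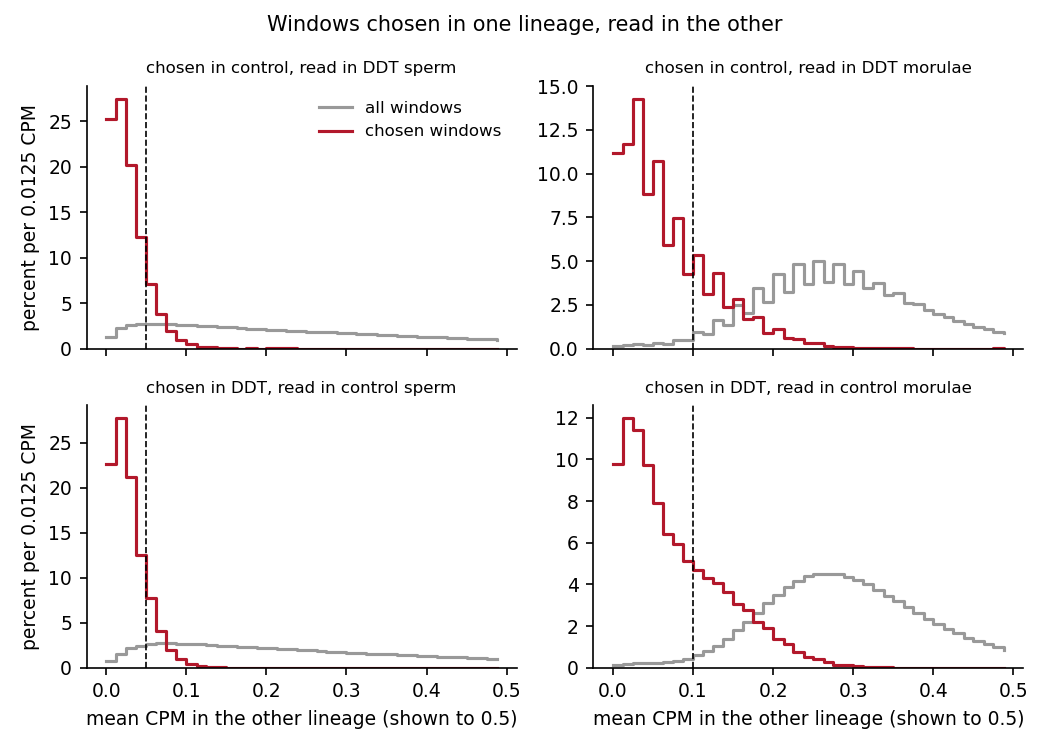
Distribution of mean CPM in the other lineage (horizontal axis, to 0.5 CPM) for windows chosen in 1 lineage and for all windows with at least 13 counts, as percent of each set per step of the histogram (vertical axis). Dashed lines mark the thresholds of 0.05 CPM in sperm and 0.1 CPM in morulae. Of the windows chosen in control, 85.2% lie at or under the line in DDT sperm and 74.3% in DDT morulae.

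Whether ancestral DDT exposure went with a change in these windows was asked in each tissue; the rule averages over both lineages. Per low window, morulae averaged 0.0516 ± 0.00124 CPM (SD, n = 3) in the control and 0.0497 ± 0.000344 CPM (n = 3) in the DDT lineage, a log2 ratio of -0.05. The 3 control libraries were all above the 3 DDT libraries, and they were also all deeper; the part of depth in this was not tested. With TMM scaling, which sets libraries to a common trimmed mean, the log2 ratio was -0.02. In open windows the levels were 0.0632 ± 0.0024 and 0.0591 ± 0.00133 CPM, again without overlap. Beside near-empty sequence they were 0.0441 ± 0.000568 and 0.0437 ± 0.000284 CPM, with overlap. The separation was not particular to low windows. Windows low in morulae alone had 0.0694 ± 0.00169 and 0.0646 ± 0.00037 CPM, without overlap (log2 ratio -0.104). Over all autosomal windows with at least 13 counts the log2 ratio was -0.0015, with overlap. The direction depends on which libraries choose the windows: among windows chosen in the control lineage alone the log2 ratio was 0.41, and among those chosen in the DDT lineage alone -0.57, since the choice holds down the lineage that makes it. In sperm the levels were 0.0243 ± 0.00107 CPM (SD, n = 3) in control and 0.0245 ± 0.00168 CPM (n = 4) in DDT, with overlap. The log2 ratio in sperm was 0.02, and 0.0015 without control sperm replicate 3 and DDT sperm replicate 4.

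Window by window, no low window passed the test in either tissue. By edgeR's quasi-likelihood test over all 2642482 windows with at least 13 counts on any chromosome (adjusted p under 0.05, Benjamini-Hochberg), 0 of 26444 low windows passed in morulae, where 1 window in all did (3.78e-05% of those tested), and 0 of 26444 passed in sperm, where 0 windows in all did (0% of those tested). At an unadjusted p under 0.05 there were 1374 low windows (5.2%) in morulae, against 4.95% of all windows, and 2019 (7.64%) in sperm, against 6.14%. DESeq2 also passed 0 low windows in either tissue and 17 windows in all in sperm. The median log2 ratio of a low window was -0.01 in morulae and 0.04 in sperm, over all windows 0.00449 and -0.0155. With a median standard error of 0.92 in morulae and 0.83 in sperm on the log2 scale, changes of 2-fold in 1 low window were not detectable at this depth.

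The low windows of smallest p show how few counts lie behind each. In morulae, chr2:213768001-213769000 had 1, 1 and 0 counts in the control and 2, 14 and 4 in the DDT libraries, and edgeR gave it an adjusted p of 0.878. The next of those with more signal in DDT were chr7:64651001-64652000, with 0, 1 and 0 against 12, 1 and 3 counts, and chr1:63094001-63095000, with 0, 0 and 0 against 0, 2 and 9. In each of these 3 windows 1 library held most of the DDT counts. Of those with less signal in DDT, chr5:132838001-132839000 had 8, 13 and 1 counts in control and 0 in each DDT library. Counts were 9, 18 and 5 against 0, 1 and 1 in chr1:194820001-194821000 and 6, 10 and 10 against 0, 1 and 0 in chr4:28533001-28534000. The groups did not overlap in CPM in 5 of these 6 windows, which were picked by their p. Over all low windows the morula groups did not overlap in 2565 (9.7%), against 10.0% of all windows tested.

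In sperm, chr15:68261001-68262000 had 15, 20 and 2 counts in control and 3, 1, 1 and 0 in DDT, which is 0.0909 ± 0.0217 CPM (SD, n = 3) against 0.011 ± 0.0113 CPM (n = 4). Its log2 ratio was -2.74 (SE 0.59, edgeR adjusted p = 0.81). The windows chr1:159738001-159739000 and chr15:80940001-80941000 followed, with 7, 9 and 1 and with 6, 10 and 1 counts in control and 0 in all 4 DDT libraries. In the opposite direction, chr16:12438001-12439000 had 0 counts in all 3 control libraries and 6, 7, 6 and 2 in DDT, chr10:80764001-80765000 had 1, 2 and 0 against 8, 7, 14 and 1, and chr7:6933001-6934000 had 0 against 4, 8, 5 and 1. The groups did not overlap in CPM in any of these 6 windows, which were picked as the smallest p of 26444, and none passed the test. Over all low windows the sperm groups did not overlap in 1624 (6.14%), against 5.9% of all windows tested.

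The pair of sperm libraries that stands apart decides this count. Without control sperm replicate 3 and DDT sperm replicate 4, a choice made after seeing the data, 253373 windows in all passed in sperm (9.59% of those tested), with 2 control against 3 DDT libraries. Of the low windows 284 passed (1.07%), 172 with more and 112 with less signal in DDT, a smaller share than over all windows. Their median total was 37 counts, against 31 over the low windows and 307 over all autosomal windows with at least 13 counts. Low windows thus had far fewer counts to pass with, so the shares are not comparable as rates. Open windows passed at 1.29% (59 higher and 74 lower in DDT) and those beside near-empty sequence at 0.935% (113 higher and 38 lower). Leaving out only 1 library of the pair, 0 low windows passed.

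Several of these calls rest on 1 library. At smallest p with less signal in DDT, chr14:31304001-31305000 had 2 counts in control sperm replicate 1, 42 in replicate 2 and 0 in DDT sperm replicates 1 to 3 (edgeR adjusted p = 0.000187), and chr12:2761001-2762000 had 45 counts in control sperm replicate 1 and 0 in replicate 2 and in these DDT libraries. In chr1:275327001-275328000 the counts were 6 and 20 against 0, 0 and 0. With more signal in DDT, chr15:7650001-7651000 had 0 in both control libraries and 16, 0 and 25 in DDT replicates 1 to 3 (adjusted p = 0.000167), and chr15:7647001-7648000, 3 kb away, had 0 and 9, 0 and 22. In chr8:43150001-43151000 DDT sperm replicate 1 held 28 counts, replicates 2 and 3 held 3 and 2, and the control libraries 0.

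In the authors' deposited tables no p-value is given for any of the 26444 low windows, in morulae or in sperm, while 2161644 and 2182744 windows carry one. Totals of the low windows over the 13 libraries did not exceed 78 counts. They were thus outside the tests of the authors' deposited tables, which pass 2 windows in morulae and 28 in sperm at an adjusted p under 0.05.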

How the data were processed

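The deposited tables hold, per the file headers, raw read counts per 1000 bp window for 13 MeDIP-seq libraries, with the authors' edgeR p-values per window. Per the submitters' processing notes, FastQC, Trimmomatic, Bowtie2, SAMtools and edgeR were used with the build Rnor_6.0; versions, windowing and duplicate removal are not given in the sources used here. The 13 deposited RPKM columns were not used. CPM were computed from library totals. Columns were assigned by matching their names to the sample titles.

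The members, the comparisons and the named windows were chosen with earlier results of these data known. Named windows are the 10 longest runs, the 3 smallest p per direction and tissue, and windows beside each threshold; those of the comparison without the pair of sperm libraries, and those of the closing section, were chosen after their values were seen. DDT was tested against control per tissue with edgeR 4.0.16 in R 4.3.3 (quasi-likelihood with bias-adjusted deviance, TMM scaling, two-sided, Benjamini-Hochberg over all windows with at least 13 counts in 13 libraries), and with DESeq2 1.42.0 as an alternative. In morulae the estimate of spread was the same prior for all windows (infinite prior degrees of freedom), so disagreement among the replicates of a window does not raise its p. In sperm the prior had 10.39 degrees of freedom with all libraries and 65.05 without the shallow pair. In the fit without that pair, disagreement among the replicates of a window thus weighed little. Lists of genes fixed for the case of an annotation could not be used. Limits at 3 counts take in counting error alone; the reads carry no molecular identifiers and may repeat a molecule.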

Additional observations from a re-analysis of the deposited data

Results flagged for a closer look

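Among 22 sets of 4 DDT sperm libraries examined, 5 had 1 library farther from the others than a 95% limit for 4 values allows (Dixon's ratio of the gap to the range). Chance gives about 1 in 20, and 3 of the 5 are one measure in overlapping sets. DDT sperm replicate 4 had no count in 47% of the low windows, against 15.9% to 20.1% in the other 3. The values were 51.3% against 18.5% to 23.6% in open windows and 44.3% against 14.2% to 17.8% beside near-empty sequence. Its library total, 33684143 counts, was the lowest of the group (104860839 to 128386419 in the others).

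The run chr3:143708001-143714000 had a summed signal of 0.438 CPM in DDT sperm replicate 1, against 0.0381 to 0.0594 CPM in the other DDT sperm libraries. The run chr7:4309001-4315000 had 0.238 CPM in DDT sperm replicate 4, from 8 counts, against 0.148 to 0.162 CPM in the others.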

How the results depend on the processing

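The number of low windows stayed within 26087 to 27615 when any 1 library was left out, and each such set shared at least 94.1% of the low windows. Stricter thresholds (0.025 CPM in sperm and 0.05 CPM in morulae) gave 7719 windows and wider ones (0.1 and 0.2 CPM) 199437; a minimum total of 26 counts gave 17101, and no minimum 151363. Runs of at least 5 windows numbered 46, 150 with 1 other window allowed inside a run and 10016 with no minimum total. The share with a near-empty window within 5 was 54.8% to 72.9% over the settings tried except 47.7% where near-empty means no count, and within 20 windows it was 76.5%.

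In morulae the count of windows past the test was 1, and 0 with DESeq2 and with a trended dispersion; without 1 replicate it ranged from 0 (without control morula replicate 1 or DDT morula replicate 2) to 32 (without DDT morula replicate 1). In sperm it was 0, 17 with DESeq2, 253373 without control sperm replicate 3 and DDT sperm replicate 4, and 0 to 24 without 1 replicate (24 when control sperm replicate 3 was left out and 3 when DDT sperm replicate 4 was). Low windows past the test were 0 in every setting with adjusted p but one: 284 in sperm without that pair of libraries. Leaving out 1 replicate gave 0 to 0. At an unadjusted p under 0.05 the counts were 130771 and 162235 windows in morulae and sperm, 1374 and 2019 of them low windows. The cause of these differences was not tested.

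With the replicate number as a block, 0 windows and 0 low windows passed in morulae, and 0 and 0 in sperm. The numbers do not pair the libraries: deviations of same-numbered libraries correlated at -0.0105, -8.37e-05 and -0.00388 in morulae and at 0.171, 0.291 and -0.404 in sperm, and no control library correlated best with the DDT library of its own number.

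The log2 ratio of the summed signal, DDT over control, stayed between -0.0702 and -0.0356 in morulae without any 1 replicate, and crossed 0 in sperm (-0.0295 to 0.0483). Counts of CpG sites, gene starts and repeats per window, with their alternatives, were not run, since no genome of the files' build was used. Depth limits all of this: 1 count in the shallowest library is 0.0329 CPM, close to the sperm threshold.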

Other observations

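Some low windows owe most of their signal within 1 tissue to 1 library. A window was counted here when 1 library had at least 8 counts and a higher CPM than the other libraries of its tissue together; this definition was made after seeing the values. It held for 362 low windows in sperm (1.37%), against 0.191% of all windows with at least 13 counts, and for 238 in morulae (0.9%), against 0.0247%. Where the mean is low, 8 counts in 1 library weigh more, so these shares are not comparable as rates. In sperm the number depends on the libraries: without control sperm replicate 3 and DDT sperm replicate 4, in the rule and in the count, it was 893 (3.19%). Control sperm replicate 2, the deepest library, accounted for 184 of the 362 and DDT sperm replicate 1 for 66, while each morula library accounted for 32 to 46.

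Most of these windows stood alone: 39 of the 362 in sperm (10.8%) and 4 of the 238 in morulae (1.68%) adjoined another of the same library. Those that lay closest together are given here, with counts summed over the windows of this kind in each stretch. On chromosome 8 DDT sperm replicate 1 had 45 counts in chr8:43140001-43145000, 64 in chr8:43148001-43152000 and 54 in chr8:43162001-43166000, where each other sperm library had 6 or fewer counts. The same library had 42 counts in chr3:143633001-143637000 and 52 in chr13:33922001-33925000, with at most 5 and 3 in the other sperm libraries. Control sperm replicate 2 had 90 counts in chr14:31300001-31305000 and 69 in chr11:17889001-17894000, with at most 2 in any other sperm library at either place. In morulae DDT replicate 1 had 21 counts in chr7:64651001-64653000 and 23 in chr7:64657001-64659000, where the other morula libraries had 1 to 5 and 0 to 8. The source of this was not tested.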
